A study of Mus musculus with 6 samples.

Results

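The genes described here are 184 protein-coding genes of the mouse. Their transcripts matched many small RNAs of piRNA size in wild-type (WT) testes at 10 days post partum (dpp). A gene was taken when its longest transcript had a mean of at least 40 RPM (reads in every 1000000 reads of the library) over both WT libraries of that age, counting sense reads of 24 to 32 nt that matched this gene, and no other gene, without mismatch. Of 21951 protein-coding genes, 190 met this bound, and 6 of these are among 14 genes that the rule names as exceptions and were left out. The genes were chosen by their levels in the WT libraries of 10 dpp, and every value from those libraries below is a description and not a finding about the choice. Just inside the bound lay Pphln1 with 40.2 RPM and Pdpk1 with 40.4 RPM, and just outside it Hspa8 with 39.9 RPM and Rrp1b with 39.8 RPM.

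The study sequenced small RNA of whole testes of C57BL/6 mice in 6 libraries, with 1 pool of animals per group and no second library of any group. The groups were Dnmt3L knockout (KO) and WT littermates at 10 dpp, and Miwi2 KO and WT littermates at 10 dpp, each with 3 mice in the pool. Dnmt3L KO and WT fetuses of 16.5 days post coitum (dpc) made up the last pair, where a pool held 7 or 8 animals. The labels do not describe the knockout alleles. No group has a second library against which a difference could be checked, so no test was run, and the intervals given are 95% intervals for counting error alone. Because whole testes were used, fewer germ cells and less RNA per germ cell cannot be told apart.

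PIWI-interacting RNAs (piRNAs) are small RNAs of germ cells, cut from long single-stranded transcripts and bound by PIWI proteins, which in most cases hold a uracil at the first position of the RNA. In the fetal testis they act largely against transposons, with MILI and MIWI2 as the PIWI proteins, and in ping-pong amplification a piRNA with uracil at position 1 pairs with an opposite one that carries adenine at position 10. In the testis after birth and before meiosis, MILI holds piRNAs cut from the 3′ UTRs of many ordinary messenger RNAs. Dnmt3L has no catalytic activity of its own and helps Dnmt3a and its relatives to methylate transposons in fetal male germ cells, and Miwi2, also named Piwil4, guides that methylation.

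The most abundant read of each of 9 leading genes over both WT libraries of 10 dpp is shown as an example of the reads counted. Sequences run 5′ to 3′ as deposited, with T for U, and the capital marks a T at position 1.
Abl2: Tgccacttgaactccatcctgagaagt
Gabpb2: Taagagaaagaactgtagctgggcagt
Tmem245: Taataaatccgtgagagtcctgaccct
Fth1: Tgcttgaacggaacccggtgctcgaccc
Klf13: Ttcaagacgaatgaatgcctcggcccc
Rab11fip4: Tgacatcgtttagctgctctgctaaga
Trim71: Ttgcacggcaggaactccacagaggaag
Zbtb37: Tcgatctgtagattagcctggcctccc
Cbx5: Tagtgcttgtagtactcctgcctcagcct

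All 9 begin with T, and 4 of them, those of Abl2, Klf13, Trim71 and Zbtb37, carry A at position 10. On GRCm38, the Abl2 read lies at chr1:156648933-156648959 on the plus strand, in the 3′ UTR and 6217 nt after the stop codon. The Gabpb2 read lies at chr3:95183958-95183984 on the minus strand, 4686 nt after the stop codon, and the Zbtb37 read at chr1:161011728-161011754 on the minus strand, 8167 nt after it. The Klf13 read lies at chr7:63888025-63888051 on the minus strand, 3457 nt after the stop codon, and the Trim71 read at chr9:114510998-114511025 on the minus strand, 1620 nt after it. These reads sit deep in long 3′ UTRs, and so do those of Tmem245, Rab11fip4 and Cbx5, at 3872 to 11244 nt after the stop codon. The read of Fth1, at chr19:9982747-9982774 on the plus strand, could not be placed in a UTR because the longest transcript of that gene is annotated as a retained intron. The Zbtb37 read shares stretches with the leading reads of the members Il17rd, Zyg11b, Cbfa2t2, Sec22c and Mob1b. A read was held to be of 1 gene by its exact match among longest transcripts alone. Whether such reads come from repeats was not tested.

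Single sequences held from 2.14% to 48.9% of a gene's WT reads, with a median of 7.22%. The share was highest in Tbc1d20, a GTPase activator of Rab proteins, with 48.9%, in Mrps10, a subunit of the mitochondrial ribosome, with 46.4%, and in Zfp280b, a zinc finger gene, with 39.6%. Of 179 members whose leading read was examined, 167 had a leading read that began with T, 56 had A at position 10 and 161 lay in the 3′ UTR. The reads of these 3 genes are shown as those that carried the most of a gene's signal, at chr2:152311722-152311748 for Tbc1d20, chr17:47369931-47369955 for Mrps10 and chr10:76041330-76041355 for Zfp280b, all on the plus strand of GRCm38. The Zfp280b read lies in the 3′ UTR, 1437 nt after the stop codon, and the longest transcripts of the other 2 genes are not annotated as coding. The Mrps10 read shares stretches with the leading read of the member Hinfp.
Tbc1d20: Tactttcaaagactttgagctggcatc
Mrps10: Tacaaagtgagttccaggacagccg
Zfp280b: Tcctagaaccgtagagcatcctctga

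The members' reads had the length and first base of piRNAs in every library. Uracil stood at position 1 in 85.0% of reads in Dnmt3L KO and 87.8% in Dnmt3L WT testes at 10 dpp, in 84.1% in both Miwi2 KO and Miwi2 WT testes, and in 79.5% in Dnmt3L KO and 80.2% in Dnmt3L WT testes at 16.5 dpc, while uracil makes up 29.2% of the members' 3′ UTRs. The most frequent length was 27 nt in all 6 libraries. By gene, 182 of 184 members had uracil at position 1 in more than 50% of their WT reads and 178 in more than 70%.

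In 2 members most reads lacked the first base of piRNAs. Lars2, the mitochondrial leucyl-tRNA synthetase, had uracil first in 18.5% of its WT reads, and its leading read begins with A. Ccdc157, a coiled-coil gene, had uracil first in 43.8% and a leading read that begins with C. Both were chosen for mention after their values were seen, and their leading reads are printed wholly in lower case, since neither begins with T. On GRCm38 they lie in the 3′ UTR, at chr9:123461821-123461848 on the plus strand, 143 nt after the stop codon, for Lars2, and at chr11:4142741-4142767 on the minus strand, 922 nt after it, for Ccdc157. The Ccdc157 read is much like the leading reads of the members Gid4 and Fbxl18. Reads were matched to 1 transcript per gene, so an origin of these reads outside the transcripts of Lars2 and Ccdc157 was not tested. Values given for these 2 genes in other passages may therefore not be those of piRNAs.
Lars2: acagaaacctcccgtggagcagaagggc
Ccdc157: cttgaactcacagagatctacctgcct

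Adenine at position 10 was found in 24.99% of reads in Dnmt3L KO and 28.6% in Dnmt3L WT testes at 10 dpp, in 27.7% in Miwi2 KO and 28.04% in Miwi2 WT testes, and in 25.9% in Dnmt3L KO and 23.4% in Dnmt3L WT testes at 16.5 dpc, against 24.9% adenine in the members' 3′ UTRs. Counted once per distinct sequence, the share with adenine at position 10 was 23.9% in Dnmt3L KO and 25.1% in Dnmt3L WT testes at 10 dpp, and 24.2% in Miwi2 KO and 24.4% in Miwi2 WT testes. The base just after the end of the read can be a uracil more often than its content when piRNAs are cut one after another. It was a uracil in 27.7% of reads in Dnmt3L KO and 27.6% in Dnmt3L WT testes at 10 dpp. In Miwi2 KO testes the share was 28.4% and in Miwi2 WT testes 27.96%. Per read, adenine at position 10 thus lay above the adenine content in Dnmt3L WT testes of 10 dpp (95% interval 28.4% to 28.7%) and in both Miwi2 libraries, while in the Dnmt3L KO library of 10 dpp the interval, 24.6% to 25.4%, included it. By distinct sequence the Dnmt3L WT share, 25.1%, was near the content of 24.9%, and both Miwi2 shares were below it. The intervals do not cover how reads gather on single sequences. The uracil after the read lay below the uracil content of 29.2% in all 4 libraries of 10 dpp. Whether piRNAs were cut one after another was not tested by this share or by the spacing below. Spacing was taken among neighbouring sense reads whose 5′ end lay 1 to 20 nt beyond the 3′ end of another. Those that followed directly, at 1 nt, made up 5.09% in Dnmt3L KO and 5.08% in Dnmt3L WT testes at 10 dpp. In Miwi2 KO testes they made up 5.13% and in Miwi2 WT testes 5.36%. The mean of the other distances was 4.995% in Dnmt3L KO and 4.996% in Dnmt3L WT testes of 10 dpp. It was 4.99% in Miwi2 KO and 4.98% in Miwi2 WT testes. The departure was largest in Miwi2 WT testes, where the distance of 1 nt ranked 3 of 20.

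Antisense reads were scarce after birth. They made up 0.154% of member reads in Dnmt3L KO and 0.133% in Dnmt3L WT testes at 10 dpp, 0.233% in Miwi2 KO and 0.203% in Miwi2 WT testes, and 3.96% in Dnmt3L KO and 3.87% in Dnmt3L WT testes at 16.5 dpc. Over all libraries 19 members had no antisense read and 170 had less than 1%. The share was highest in Lars2 with 6.89%, and next in Bcl2l13, a mitochondrial relative of Bcl2, with 6.55%, in Fam206a with 6.09% and in Foxk1, a forkhead transcription factor, with 5.83%. Among overlaps of 1 to 20 nt between sense and antisense reads, the 10 nt overlap of ping-pong was the most frequent in 5 libraries and took 12.1% of 1635 pairs in Miwi2 KO and 11.3% of 2984 pairs in Miwi2 WT testes. The Dnmt3L KO library of 10 dpp held 16 pairs. Without Lars2 and Ccdc157 antisense reads made up 3.004% in Dnmt3L KO and 2.45% in Dnmt3L WT testes at 16.5 dpc, and of 6711 pairs in Dnmt3L KO and 6439 in Dnmt3L WT testes at that age 1387 and 805 were left.

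The reads lay in the 3′ UTR. Over the 175 members whose longest transcript is annotated as coding, the 3′ UTR held 88.3% of reads in Dnmt3L KO and 92.7% in Dnmt3L WT testes at 10 dpp, 88.7% in Miwi2 KO and 88.9% in Miwi2 WT testes, and 75.6% in Dnmt3L KO and 74.3% in Dnmt3L WT testes at 16.5 dpc. In the other protein-coding genes with at least 500 reads over both WT libraries of 10 dpp, 869 in number and 806 of them with a coding longest transcript, the share was 62.9% in Dnmt3L KO and 77.7% in Dnmt3L WT testes at 10 dpp. By gene, 148 members had more than 80% of their WT reads there and 170 more than 50%.

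Per kilobase, the 3′ UTRs of the members carried 13.8 RPM in Dnmt3L WT testes at 10 dpp and 1.499 RPM at 16.5 dpc, while their coding parts carried 2.91 RPM at 10 dpp and 1.22 RPM at 16.5 dpc. These are levels per length. The density in the 5′ UTR was 1.505 RPM per kilobase at 10 dpp and 1.88 at 16.5 dpc in the same testes. In WT testes the 3′ UTR was thus the densest part at 10 dpp and the 5′ UTR at 16.5 dpc. In the Dnmt3L KO testes of 10 dpp the densities were 1.68 RPM per kilobase in the 3′ UTR and 0.581 in the coding part.

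The 3′ UTRs of these 175 members were long, with a median of 4451 nt, against 3264 nt in 806 of the other protein-coding genes and 955 nt in 18684 protein-coding genes with a coding longest transcript. Across the members the WT level at 10 dpp and the length of the 3′ UTR were weakly related, with a Spearman rho of 0.12 over 175 genes. A longer transcript offers more places for a read, so length enters the rule. Coding length had a median of 1464 nt in the members and 1559 nt in the others.

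A few members departed from this picture. Srrm2, a protein of nuclear splicing speckles, had 99.7% of its WT reads in the coding part, and Spen, an RNA-binding corepressor, had 98.1%. Ppp1r15b, a regulatory subunit that directs protein phosphatase 1 to the initiation factor eIF2α, had 84.4% there. The 3′ UTR held 47.2% of the reads of Smcr8 and 49.7% of those of Spata2. At the other end, all WT reads of Gm4631 and 99.9% of those of Lars2 lay in the 3′ UTR. Srrm2 and Spen have short 3′ UTRs, of 511 and 1016 nt, and the longest coding parts of the set, of 8112 and 10932 nt.

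The members were a mixed group. Those with a symbol of the Zfp, Zscan or Zbtb series, which name zinc finger genes, numbered 9 (4.89% of the members, against 5.75% of the other 869 genes) and solute carriers of the Slc series 5. Other zinc finger genes and carriers with other symbols are not in these counts. None of the 24 genes of the piRNA pathway, the 18 markers of germ cells, or the markers of meiosis, Sertoli, Leydig, stromal and blood cells was a member. With 184 members among 21951 protein-coding genes, lists this short would mostly hold none at that share. Their absence is therefore not a result about these lists. A single member, Tmem164, lies on chromosome X, as do 14 of the 869 others and 948 of all 21951 protein-coding genes. Dnmt3a, the methyltransferase that Dnmt3L assists, and Tet3, a dioxygenase that oxidises methylated cytosine, were members, as were the Argonaute genes Ago1 and Ago3, all picked out after their values were seen.

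Library totals were 28701563 to 47232494 reads, so that 3 reads correspond to 0.0635 to 0.105 RPM. Member reads numbered 51873 in Dnmt3L KO and 526427 in Dnmt3L WT testes at 10 dpp, 501515 in Miwi2 KO and 1002710 in Miwi2 WT testes, and 87709 in Dnmt3L KO and 85571 in Dnmt3L WT testes at 16.5 dpc. Over all libraries Mir202 of the gonads had 30.3 to 425 RPM and the X-linked Mir871 1358 to 17613 RPM. At 10 dpp Mir202 had 425 RPM in Dnmt3L KO and 255 in Dnmt3L WT testes, and Mir871 had 5252 and 17613 RPM in the same order. Mir449a had 96.0 RPM in Dnmt3L KO and 3.15 in Dnmt3L WT testes at 10 dpp, and 3.47 in Miwi2 KO and 59.9 in Miwi2 WT testes. The X-linked Mir463, Mir465, Mir470, Mir741, Mir743, Mir871, Mir880, Mir881, Mir883a and Mir883b were lower in Dnmt3L KO than Dnmt3L WT testes of 10 dpp. In Miwi2 KO testes all of them were higher than in Miwi2 WT testes, Mir871 with 11956 and 5635 RPM. Mir202, Mir126a, Mir142 and Mir451a were higher in Dnmt3L KO than in Dnmt3L WT testes of 10 dpp. Mir202, Mir126a and Mir142 were higher in Miwi2 KO than in Miwi2 WT testes too, and Mir451a slightly lower. Both WT libraries differed in Mir449a. The part of this in the results was not tested. The Dnmt3L libraries of 10 dpp stood apart in read length: reads of 29 nt made up 2.34% of member reads in the KO and 6.55% in the WT, against 12.8% in Miwi2 KO and 11.5% in Miwi2 WT testes.

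**Figure D1:**
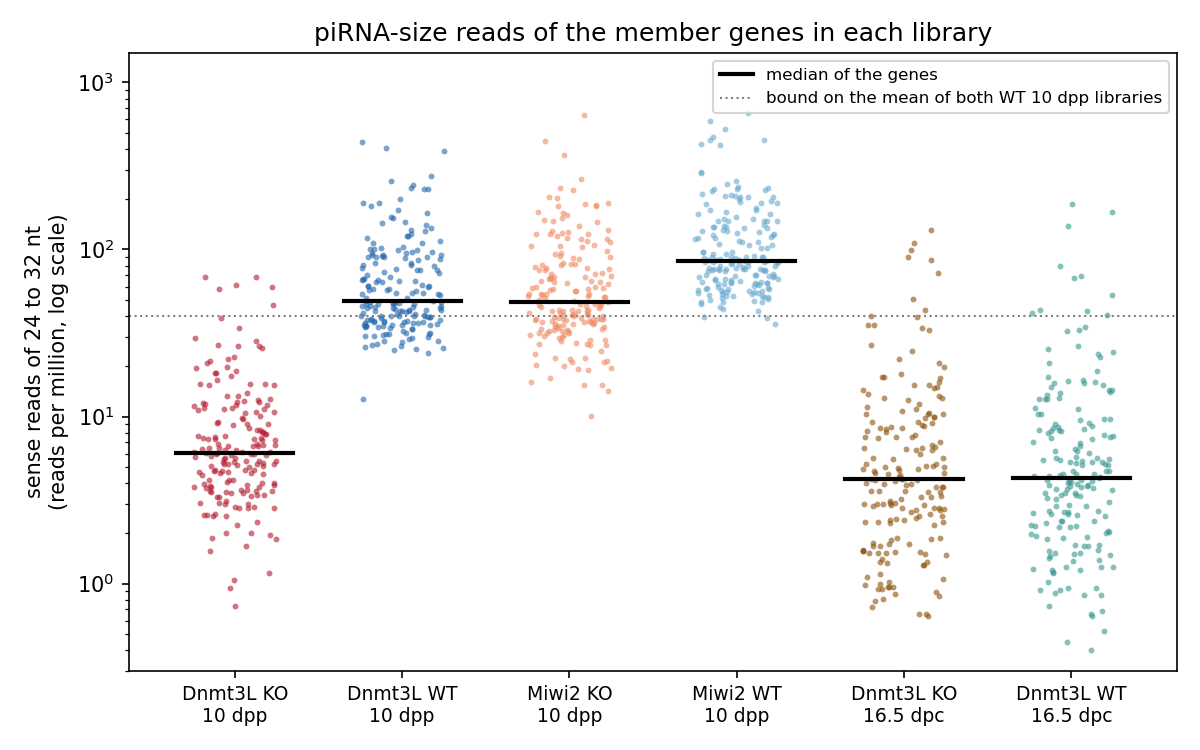
Level of each of the 184 genes in each library, as RPM of sense reads of 24 to 32 nt on a log scale, with 1 point per gene, black bars for medians and a dotted line at 40 RPM. The medians are 6.04 RPM in Dnmt3L KO and 49.3 in Dnmt3L WT testes at 10 dpp, 48.6 in Miwi2 KO and 84.9 in Miwi2 WT testes, and 4.20 in Dnmt3L KO and 4.31 in Dnmt3L WT testes at 16.5 dpc.

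In WT testes of 10 dpp the members ranged from 12.8 to 442 RPM in the Dnmt3L line and from 35.9 to 655 RPM in the Miwi2 line. They took 44.6% of all uniquely matched sense reads of protein-coding genes in the Dnmt3L line and 42.0% in the Miwi2 line. The 10 leading members held 20.6% of member reads in the Dnmt3L WT library and 20.5% in the Miwi2 WT library. The signal was thus spread over many genes. Both libraries ordered the members alike, with a Spearman rho of 0.80 over 184 genes, and the 10 most used 5′ ends of a gene in one had a median of 6 in common with those in the other.

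Abl2, a non-receptor tyrosine kinase, led the set, with 61.4 RPM in Dnmt3L KO and 442 in Dnmt3L WT testes at 10 dpp, 368 in Miwi2 KO and 589 in Miwi2 WT testes, and 22.2 in Dnmt3L KO and 25.4 in Dnmt3L WT testes at 16.5 dpc. Gabpb2, a subunit of the transcription factor GABP, had 46.4 RPM in Dnmt3L KO and 405 in Dnmt3L WT testes at 10 dpp, 263 in Miwi2 KO and 454 in Miwi2 WT testes, and 26.8 in Dnmt3L KO and 23.7 in Dnmt3L WT testes at 16.5 dpc. For both genes the Dnmt3L KO library was the lowest of the 4 libraries of 10 dpp, and both fetal libraries were lower still. Klf13, a Krüppel-like transcription factor, had 22.2 RPM in Dnmt3L KO and 234 in Dnmt3L WT testes at 10 dpp, 204 in Miwi2 KO and 473 in Miwi2 WT testes, and 35.5 in Dnmt3L KO and 43.2 in Dnmt3L WT testes at 16.5 dpc. Trim71, an RNA-binding protein and a classic target of let-7, had 19.7 RPM in Dnmt3L KO and 244 in Dnmt3L WT testes at 10 dpp, 166 in Miwi2 KO and 426 in Miwi2 WT testes, and 43.6 in Dnmt3L KO and 53.3 in Dnmt3L WT testes at 16.5 dpc. In Klf13 and Trim71 the Dnmt3L KO library of 10 dpp was the lowest of all 6.

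Cbx5, which encodes the heterochromatin protein HP1α, had 29.7 RPM in Dnmt3L KO and 229 in Dnmt3L WT testes at 10 dpp, 189 in Miwi2 KO and 288 in Miwi2 WT testes, and 24.8 in Dnmt3L KO and 26.3 in Dnmt3L WT testes at 16.5 dpc. Fth1, the ferritin heavy chain, had 59.5 RPM in Dnmt3L KO and 144 in Dnmt3L WT testes at 10 dpp, 634 in Miwi2 KO and 655 in Miwi2 WT testes, and 109 in Dnmt3L KO and 187 in Dnmt3L WT testes at 16.5 dpc. Fth1 was thus much higher in the Miwi2 line than in the Dnmt3L line. Its leading read had 1.01 RPM in Dnmt3L KO and 1.81 in Dnmt3L WT testes at 10 dpp, and 101 in Miwi2 KO and 94.2 in Miwi2 WT testes. Among the other leading genes are Rab11fip4, an effector of Rab11, and the zinc finger gene Zbtb37.

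**Figure D2:**
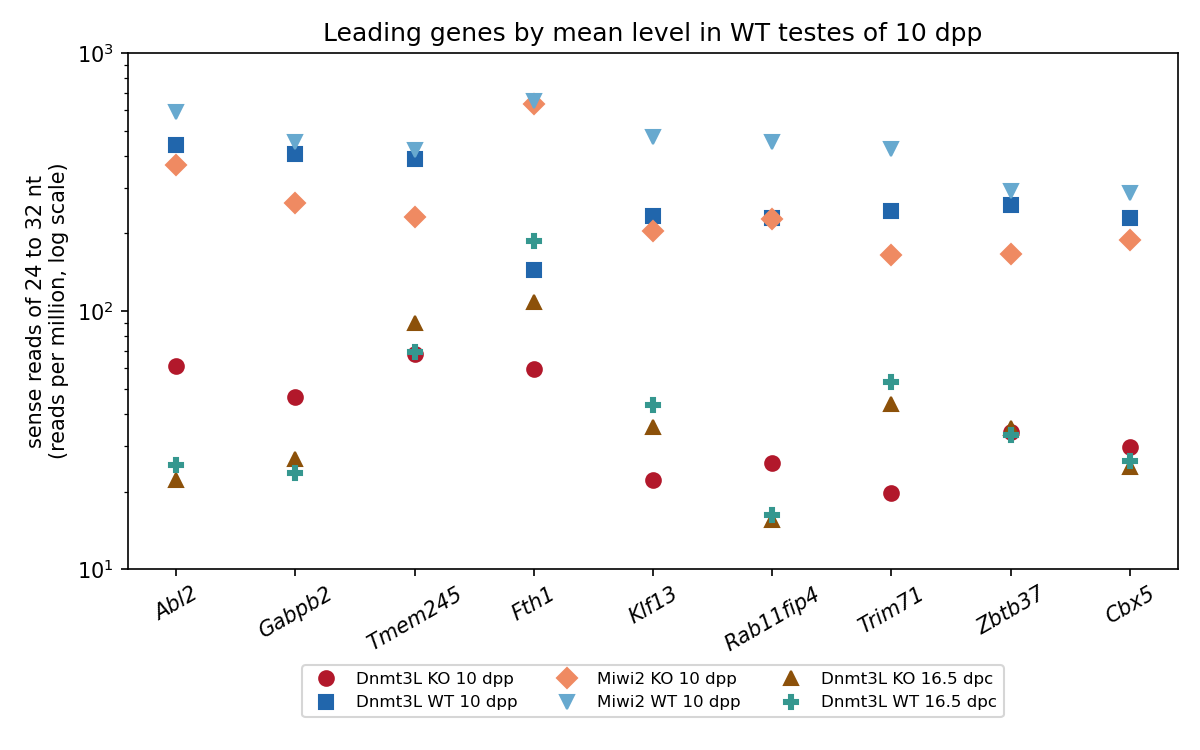
Level of 9 leading genes in each library, in RPM on a log scale, with 1 symbol per library. Miwi2 WT testes give the highest value for all 9 genes, and in 8 of them, all but Fth1, Dnmt3L WT testes of 10 dpp lie above Dnmt3L KO testes of 10 dpp and above both fetal libraries.

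A change between libraries was called when the ratio of RPM values, with counts floored at 3, was beyond 4.23-fold in either direction, a log2 ratio of 2.08. The limit comes from the WT pair of 10 dpp: among 1211 genes with at least 500 reads in that pair, 95% had a log2 ratio of a smaller size. Genes with fewer than 500 reads in the compared libraries together were not compared. Shares called over all genes and over protein-coding genes include the members. Since the counts of a WT library passed most members, a member low in the KO could still be compared.

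The first comparison asks whether loss of Dnmt3L changed these small RNAs after birth. All 184 members were lower in Dnmt3L KO than in Dnmt3L WT testes at 10 dpp, and 176 were beyond the limit, with 0 members higher. The background was as deep: 81.7% of 541 genes of all kinds, and 94.9% of 452 protein-coding genes, members included in both, were called lower. The WT library helped to choose the members, so the count is a description, and the share in the members was near that in protein-coding genes. The median log2 ratio was -3.16 in the members, -3.33 in 262 other protein-coding genes and -3.06 in all genes compared. Summed over the members the level was 1807 RPM in Dnmt3L KO and 13828 RPM in Dnmt3L WT testes, a ratio of 0.131.

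The direction of single members within this shared shift depends on the scaling. With TMM scaling, which takes the typical gene as unchanged and here moves the median of all genes from a log2 ratio of -3.06 to -0.35, 11 members were called lower and 0 higher, and 148 of 184 had a ratio below 1. With scaling to the reads of miRNA genes all 184 stayed below 1 and 159 were called lower. In the piRNA-size reads of protein-coding genes alone, members took 38.3% in Dnmt3L KO and 44.6% in Dnmt3L WT testes.

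The deepest ratios were those of Emc1, a subunit of the endoplasmic reticulum membrane complex, of Pphln1, which encodes periphilin, a part of the HUSH silencing complex, and of Lifr, the receptor of leukaemia inhibitory factor. Emc1 had 1.67 RPM in Dnmt3L KO and 75.1 in Dnmt3L WT testes at 10 dpp, a ratio of 0.0223 (95% interval 0.0164 to 0.0296). Pphln1 had 1.15 RPM in Dnmt3L KO and 40.8 in Dnmt3L WT testes, a ratio of 0.0282 (0.0193 to 0.0397). Lifr had 0.941 RPM in Dnmt3L KO and 25.5 in Dnmt3L WT testes, a ratio of 0.0370 (0.0242 to 0.0541). All 3 were far beyond the limit. Of the WT sense reads of 10 dpp on Emc1 and Pphln1 that matched fewer than 10 genes, 46.7% and 40.1% matched other genes too. These were not counted, and reads that matched more genes are outside these shares.

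The shallowest ratios were those of Fth1, of Bmf, a pro-apoptotic BH3-only protein, and of Lars2, most of whose WT reads lacked uracil first. The ratio of Dnmt3L KO to Dnmt3L WT was 0.414 (0.392 to 0.437) for Fth1, 0.366 (0.323 to 0.415) for Bmf and 0.358 (0.340 to 0.376) for Lars2, all short of the limit. With TMM scaling these 3 genes had a log2 ratio of 1.44, 1.26 and 1.23, the opposite direction. Besides these, Eif4ebp2, Micall1, Bcl2l13, Cmtm4 and Tbc1d16 were the members not called. Dnmt3a had 4.74 RPM in Dnmt3L KO and 49.1 in Dnmt3L WT testes, and Tet3 had 6.31 and 64.0 RPM in the same order.

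Read length moved with this comparison. The ratio of Dnmt3L KO to Dnmt3L WT, over all members, was 0.167 at 24 nt, 0.178 at 25 nt, 0.154 at 26 nt, 0.136 at 27 nt and 0.104 at 28 nt, and then 0.0466 at 29 nt, 0.0245 at 30 nt, 0.0150 at 31 nt and 0.0207 at 32 nt. The members were lower at each length, and most so among long reads. Other protein-coding genes, 869 in number, had a like shift. Reads of 29 nt made up 1.94% of their reads in Dnmt3L KO and 6.01% in Dnmt3L WT testes at 10 dpp, against 2.34% and 6.55% in the members. With reads of 25 to 28 nt only, where the limit was 1.604 on the log2 scale, 180 of 183 members were called lower, against 90.0% of all genes compared. The part of the length difference between these libraries in the result was not tested further.

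**Figure D3:**
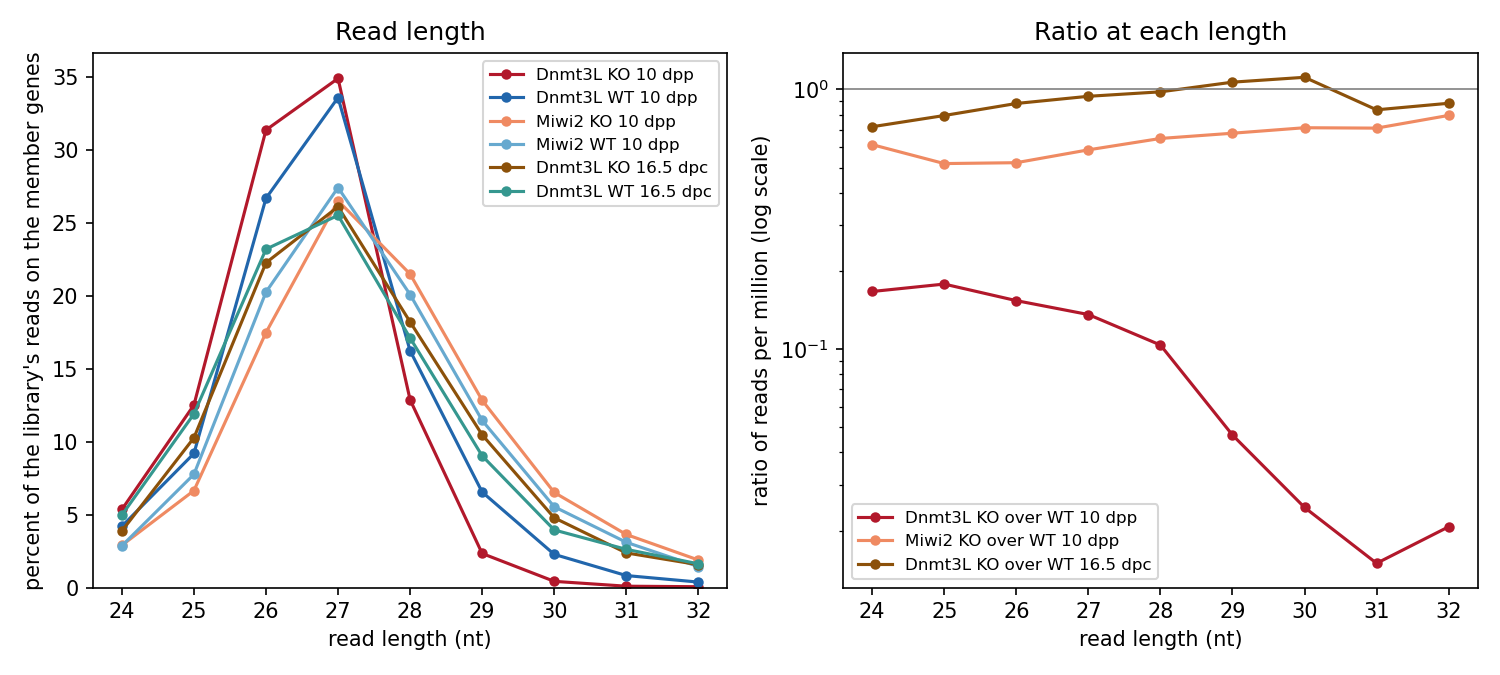
Left, read length in nt on the x axis and percent of the library's member reads on the y axis, 1 line per library. Right, ratio of summed RPM over all members at each length, KO over WT, on a log axis. All 6 libraries peak at 27 nt, and the ratio of Dnmt3L KO to Dnmt3L WT at 10 dpp drops from 0.104 at 28 nt to 0.0150 at 31 nt.

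The remaining reads of Dnmt3L KO testes can be set beside those of WT testes site by site. Over 151 members with at least 100 reads in both libraries, the 10 most used 5′ ends in Dnmt3L KO and in Dnmt3L WT testes of 10 dpp shared a median of 6. Both WT libraries also shared a median of 6, over 184 members. The levels of the members kept their order, with a Spearman rho of 0.77 between Dnmt3L KO and Dnmt3L WT testes over 184 genes. Of the 18 listed markers of germ cells 2 could be compared, Zbtb16 and Lin28a, and both were called lower, as were 94.9% of protein-coding genes. The list's summed level of piRNA-size sense reads was 4.49 RPM in Dnmt3L KO and 44.3 RPM in Dnmt3L WT testes, with 3 and 0 genes at 0. These too are small RNAs and not messenger RNA levels, and their part in the result was not tested. None of the genes of the other lists reached 500 reads. The piRNA pathway list summed to 3.48 RPM in Dnmt3L KO and 27.5 RPM in Dnmt3L WT testes, the Leydig list to 0.314 and 2.05 RPM in the same order, mostly from Star, and the stromal list to 5.89 and 9.82 RPM. The Sertoli list summed to 2.44 RPM in Dnmt3L KO and 2.76 RPM in Dnmt3L WT testes, the meiosis list to 0.592 and 1.58 RPM, and the blood and vessel list to 0.105 and 0.447 RPM.

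The second comparison asks the same of Miwi2. In Miwi2 KO testes 180 of 184 members were below Miwi2 WT testes, each with a counting interval below 1, but 1 member was beyond the limit, against 0.786% called lower and 1.26% called higher of 1272 genes and 0.732% called lower of 1093 protein-coding genes. The median ratio was 0.575 in the members and 0.567 in 903 other protein-coding genes. The summed level was 13475 RPM in Miwi2 KO and 22277 RPM in Miwi2 WT testes, a ratio of 0.605. The members and the other protein-coding genes were thus lower by a like factor, and both WT libraries differed from each other by a median of 1.65-fold over the members. With TMM scaling the median log2 ratio of the members was -0.14 and 128 of 184 were below 1.

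The member beyond the limit was Cep68, a centrosomal protein, with 15.4 RPM in Miwi2 KO and 70.1 in Miwi2 WT testes, a ratio of 0.220 (0.201 to 0.241). Dnmt3L WT testes had 12.8 RPM of Cep68, below the Miwi2 KO. Next were Pphln1 with 10.0 RPM in Miwi2 KO and 39.6 in Miwi2 WT testes, and Knop1, a nucleolar protein, with 14.2 and 52.9 RPM in the same order. Of the WT sense reads of 10 dpp on Knop1 that matched fewer than 10 genes, 63.9% matched other genes too and were not counted. The 4 members above 1 were Micall1, an adaptor of endocytic recycling, with a ratio of 1.28 (1.22 to 1.34), Dcaf7 with 1.12 (1.08 to 1.17), Bmf with 1.04 (0.986 to 1.09) and Ubfd1 with 1.03 (0.974 to 1.08). In Bmf and Ubfd1 the interval included 1.

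Summed levels of the marker lists are given beside this comparison. The 7 listed genes of peritubular and stromal cells summed to 63.3 RPM in Miwi2 KO and 23.1 RPM in Miwi2 WT testes, with 0 genes at 0 in either, and Col1a1, a collagen gene, had 25.04 RPM in Miwi2 KO and 7.60 in Miwi2 WT testes. The sum came mostly from 3 collagen genes, the 3 of the list that could be compared, and 0 of them were beyond the limit, while Pdgfra had 3.95 RPM in Miwi2 KO and 6.44 in Miwi2 WT testes. The germ cell list summed to 49.6 RPM in Miwi2 KO and 74.96 RPM in Miwi2 WT testes. Their part in the result was not tested. Read length differed less than in the Dnmt3L pair, with ratios between 0.518 at 25 nt and 0.794 at 32 nt. Over all 184 members a median of 7 of the 10 leading 5′ ends were shared between Miwi2 KO and Miwi2 WT testes.

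**Figure D4:**
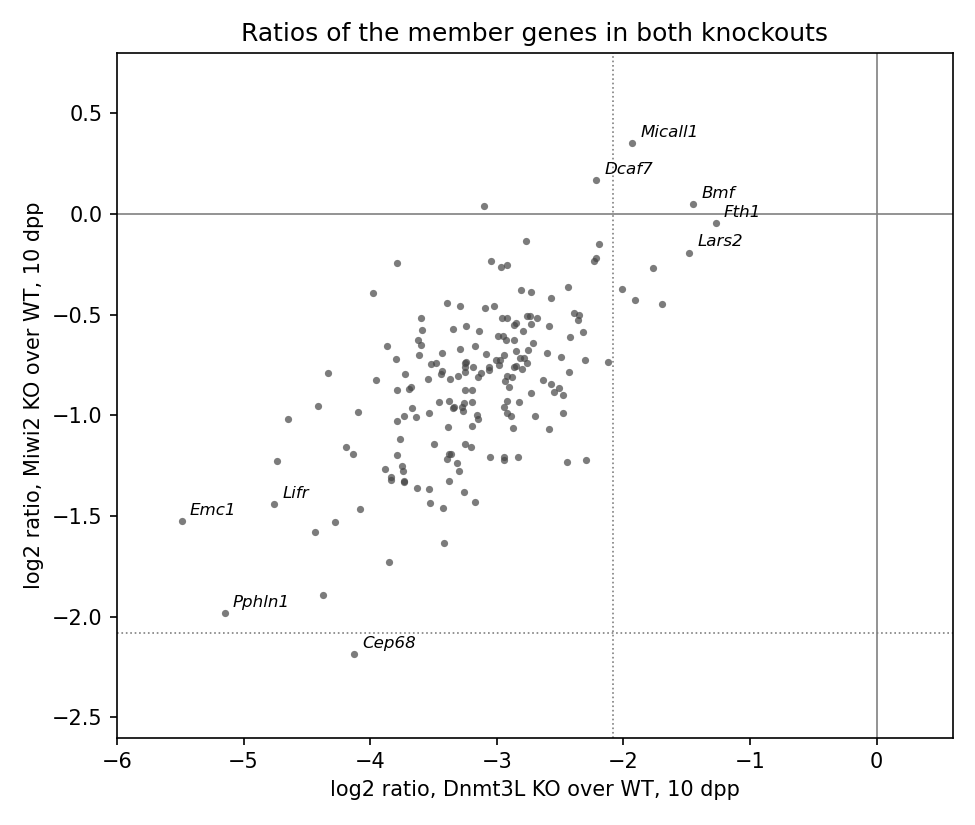
Log2 ratio of Dnmt3L KO over Dnmt3L WT (x axis) and of Miwi2 KO over Miwi2 WT (y axis) at 10 dpp, 1 point per gene, with solid lines at 0 and dotted lines at the limit of 4.23-fold. All 184 points lie left of 0, most of them left of the dotted line, and Cep68 alone lies below the horizontal dotted line.

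Both comparisons at 10 dpp use separate WT libraries, and the members' log2 ratios in the 2 lines had a Spearman rho of 0.56 over 184 genes, given as a description since the WT levels that chose the members stand in both ratios. Emc1, Pphln1 and Lifr were low in both, with ratios of 0.347, 0.253 and 0.369 in the Miwi2 line. Fth1, Bmf and Lars2 were near the top in both, with ratios of 0.969, 1.04 and 0.876 in the Miwi2 line. Most WT reads of Lars2 lacked uracil first.

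At 16.5 dpc, where the libraries had no share in choosing the members, no member differed beyond the limit between Dnmt3L KO and Dnmt3L WT testes. Of 184 members 71 reached 500 reads, and of these 0 were called lower and 0 higher, against 0% called lower and 0.165% called higher of 607 genes. The other 113 members were under the minimum. The median ratio was 0.993 in the members and 0.920 in 282 other protein-coding genes, and the range was 0.581 to 1.42. The side of 1 depends on the scaling: 37 of the 71 members were below 1 here and 18 with scaling to the reads of miRNA genes. Counting intervals lay below 1 in 19 of the 71 members, above 1 in 13, and included 1 in 39.

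The lowest ratios at 16.5 dpc were those of Fth1, with 0.581 (0.561 to 0.602), of Eif4ebp2, an inhibitor of the cap-binding protein eIF4E, with 86.8 RPM in Dnmt3L KO and 138 in Dnmt3L WT testes, and of Slc25a51, the mitochondrial NAD carrier, with 8.66 and 12.7 RPM in the same order. The highest were those of Xpnpep3, an aminopeptidase, with 9.97 RPM in Dnmt3L KO and 7.01 in Dnmt3L WT testes and a ratio of 1.42 (1.23 to 1.65), of Prkab2, a subunit of AMP-activated kinase, with 1.38 (1.17 to 1.63), and of Tmem245 with 1.29 (1.23 to 1.35). All were far within the limit. The levels of the members in both fetal libraries had a Spearman rho of 0.97 over 184 genes. The stromal list summed to 14.1 RPM in Dnmt3L KO and 42.6 RPM in Dnmt3L WT testes, where 2 of its genes could be compared and 0 were beyond the limit, and Pdgfra had 1.71 RPM in Dnmt3L KO and 1.49 in Dnmt3L WT testes. The part of these levels in the result was not tested.

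The last comparison sets Dnmt3L WT testes of 10 dpp against those of 16.5 dpc. At 10 dpp 166 of 184 members were called higher and 0 lower, while of 799 genes compared 48.7% were called higher and 21% lower, and of 605 protein-coding genes 62.3% were called higher. The members are among the 799 and the 605 genes. The share in the members cannot be read as a result, because they were chosen for being high at 10 dpp. Their summed level was 13828 RPM at 10 dpp and 2020 RPM at 16.5 dpc, and the median member had 49.3 RPM at 10 dpp and 4.31 RPM at 16.5 dpc. In the uniquely matched sense reads of protein-coding genes, members took 44.6% at 10 dpp and 11.5% at 16.5 dpc.

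The largest ratio was that of Dhx33, an RNA helicase, with 73.1 RPM at 10 dpp and 0.684 at 16.5 dpc, a ratio of 107 (74.2 to 159.8). It was followed by Tmod2, a tropomodulin that caps actin filaments, with 43.1 RPM at 10 dpp and 0.448 at 16.5 dpc, and by Emc1, with 75.1 and 0.873 RPM in the same order. The lowest were Dlg4, the scaffold protein PSD-95, with 29.1 RPM at 10 dpp and 41.9 at 16.5 dpc, Eif4ebp2, with 96.4 and 138 RPM in the same order, and Fth1, with 144 and 187 RPM. These 3 were among 4 members with a ratio below 1, none of them beyond the limit.

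Some members had many reads already in fetal testes. In both fetal libraries 141 members had under 10 RPM, and 9 had over 40 RPM, among them Tmem245, Fth1, Trim71, Lars2, Eif4ebp2, Smcr8, Ppp1r15b and Spata2. Over 133 members with at least 100 reads in both, the 10 leading 5′ ends at 10 dpp and at 16.5 dpc in Dnmt3L WT testes shared a median of 3, and those of Dnmt3L KO and Dnmt3L WT testes at 16.5 dpc shared a median of 5 over 132 members. The order of the members was less alike between ages, with a Spearman rho of 0.54 between Dnmt3L WT testes of 10 dpp and of 16.5 dpc, and of 0.64 between Miwi2 WT testes of 10 dpp and Dnmt3L WT testes of 16.5 dpc.

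Since no group has a second library, the pair of WT libraries of 10 dpp gives the nearest view of how far like samples differ, line and pool included. In Miwi2 WT testes 177 of 184 members were higher than in Dnmt3L WT testes, by a median of 1.65-fold. Beyond the limit were 2 members, Cep68 with a ratio of 5.47 (4.97 to 6.03) and Fth1 with 4.55 (4.42 to 4.69). Micall1 followed with 3.33 (3.10 to 3.59). Of 1211 genes 4.54% were called higher and 0.495% lower, and of 1059 protein-coding genes 2.83% higher and 0.0944% lower. The limit was taken from this same pair over these 1211 genes, so the share called in both directions together is set by it. These shares therefore give no background for the 2 members called, which the same libraries also helped to choose. With TMM scaling 125 of 184 members were lower in Miwi2 WT testes instead. At the other end were Zfp280b with a ratio of 0.577, Stk4, a kinase of the Hippo pathway, with 0.605, and Emc1 with 0.648.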

How the data were processed

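Small RNA of 18 to 35 nt from Trizol-extracted RNA of whole testes was sequenced from TruSeq libraries, per the labels' protocols. The deposited files hold raw counts, 1 count per distinct read sequence, with no header. The submitters' processing notes name mm9 as the build, and trimming and filters are not stated. Reads of 24 to 32 nt were matched exactly, in both orientations, to 1 transcript (the longest) for each of 55450 genes of GENCODE vM21, so coordinates are on GRCm38. A read counted only if it matched 1 gene, so matches outside genes stayed unseen, and no repeat annotation was used. Counts were scaled to RPM by the library's total (28701563 to 47232494 reads). Ratios have exact conditional binomial intervals at 95%, for counting error alone, as reads carry no molecular identifiers. Matching was checked on reads cut from transcripts. The size rule was run on simulated counts with counting error alone and with decreases set beyond the limit. That run checks the code and cannot show how the rule does with the spread between libraries. Alternatives used edgeR 4.0.16 for TMM factors and DESeq2 1.42.0 for size factors, with no test. Tables and figures used Python 3.11.15, numpy 2.4.6, scipy 1.17.1 and matplotlib 3.10.9.

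The members, the lists and the rules were chosen with earlier results of these data known. One gene that the rule would name is not reported here. Genes named by rule are the 10 with the highest WT mean at 10 dpp, the 3 highest and 3 lowest ratios of each comparison, the extremes of 3′ UTR share, antisense share and share of 1 sequence, and those next to the bound. Dnmt3a, Tet3, Ago1, Ago3, Lars2 and Ccdc157 were picked out after their values were seen.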

Additional observations from a re-analysis of the deposited data

Results flagged for a closer look

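In 13 of the 71 members compared at 16.5 dpc, the ratio of Dnmt3L KO to Dnmt3L WT lay above 1 at 16.5 dpc and below 1 at 10 dpp, both beyond counting error. The difference between the ages was not tested, since each group is 1 library, and 19 of the 71 members had a ratio below 1 at 16.5 dpc beyond counting error. The ratio at 10 dpp was below 1 in all members and its libraries helped to choose them, so the sign at 16.5 dpc alone decides which genes stand here, of which 12 are given. With TMM scaling several of them, Smcr8 and Tmem245 included, were above 1 at 10 dpp as well.

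The ratio was 1.42 at 16.5 dpc and 0.0817 at 10 dpp for Xpnpep3, 1.38 and 0.0953 in that order of ages for Prkab2, 1.29 and 0.102 for Foxk1, and 1.29 and 0.175 for Tmem245. For Slc43a2 it was 1.28 at 16.5 dpc and 0.168 at 10 dpp, for Hinfp, a histone gene transcription factor, 1.24 and 0.139, and for Spata2 1.19 and 0.191. The ratio of Zbtb43 was 1.18 at 16.5 dpc and 0.104 at 10 dpp, that of Fam53b 1.17 and 0.186, and that of Agtrap, which binds the angiotensin receptor, 1.17 and 0.127. Gabpb2 had 1.13 at 16.5 dpc and 0.115 at 10 dpp, and Smcr8 1.07 and 0.195.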

How the results depend on the processing

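No paired analysis was possible because each group is 1 library and there are no replicate numbers. Each setting has its own limit. Of 176 members called in Dnmt3L KO against Dnmt3L WT testes at 10 dpp, the count was 11 with TMM scaling, 10 with size factors, 12 (10 lower and 2 higher, of 112 compared) with distinct sequences in place of reads, and 104 of 108 with a bound of 60 RPM. TMM and size factors centre all genes by construction. In Miwi2 KO against Miwi2 WT testes, with 1 called, it was 8 with reads of 25 to 28 nt, and 0 with miRNA scaling, distinct sequences, reads of several genes divided, a minimum of 100 reads or the bound of 60 RPM. At 10 dpp against 16.5 dpc, with 166 called, it was 81 with miRNA scaling, 102 of 102 compared with distinct sequences, and 99 of 108 with the bound of 60 RPM. In Miwi2 WT against Dnmt3L WT testes, with 2 called, both higher, it was 4 with TMM or size factors (3 lower and 1 higher, with 1 of the 2 kept), 8 (all lower) with distinct sequences, and 1 with reads of 25 to 28 nt, divided reads, the minimum of 100 or the bound of 60 RPM. At 16.5 dpc 0 were called under each setting. The cause of these moves was not tested. Leaving out Lars2 and Ccdc157, an alternative chosen after the data were seen, kept each count within 1.5 times.

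In Miwi2 WT and Dnmt3L WT testes of 10 dpp, reads of 25 to 28 nt gave 88.6% and 92.2% in the 3′ UTR, 83.9% and 87.6% with U at position 1, and 26.2% and 26.9% with A at position 10. Distinct sequences gave 84.9% and 88.2%, 71.2% and 76.7%, and 24.4% and 25.1% in the same order. With 1 library per group, differences within the limit of 4.23-fold are not distinguishable from those between like libraries.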
